A study of Mus musculus with 8 samples.

Results

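Classical cadherins and the catenins bound to their tails were followed through 8 RNA-seq libraries of the mouse incisor. The members were 8 genes of the 23358 in the deposited table, namely *Cdh1*, *Cdh2*, *Cdh3*, *Ctnnd1*, *Ctnnb1*, *Jup*, *Ctnna1* and *Ctnna2*, each found on 1 row by its symbol. They were selected on their measured values in the CLT libraries, where *Cdh2* and *Ctnna2* were far lower in cKO than in Ctrl, so for CLT their values are a description and carry no test. All 8 members passed the filter on low values, as they would have on the Ctrl libraries alone.

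The study asked how the dental epithelial lineage changes when *Med1*, a subunit of the Mediator complex, is deleted from it. Tissues came from the cervical loop of the incisor of 4-week-old C57BL/6 mice, whose head region (CLH) houses the dental epithelial stem cells, with their progenies in the tail region (CLT). The cKO mice carried floxed *Med1* alleles (exons 8 to 10) and Cre recombinase driven by the *Krt14* promoter, which acts in *Krt14*-expressing epithelial cells. The Ctrl mice were littermates without Cre. The 4 groups (Ctrl CLH, cKO CLH, Ctrl CLT, cKO CLT) had 2 libraries each, and the mice came from 2 litters. Cervical loop tissues of several mice were pooled, so every p-value measures the spread between 2 pools a group. Which replicate number came from which litter is not given in the sources used here. The labels give dental epithelial cells as the cell type, but all 8 libraries also held mesenchyme RNA, with *Vim* at 128 to 528 RPKM (reads scaled to gene length and to the library's total).

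A classical cadherin is a transmembrane protein that binds the same kind of cadherin on a neighbouring cell in the presence of calcium. Its cytoplasmic tail carries p120-catenin (*Ctnnd1*) near the membrane, which keeps the cadherin at the surface, and further out either β-catenin (*Ctnnb1*) or plakoglobin (*Jup*). These in turn bind an α-catenin (*Ctnna1*, *Ctnna2*), which attaches the complex to actin. Epithelia typically use E-cadherin (*Cdh1*), with P-cadherin (*Cdh3*) in basal layers and the hair follicle, whereas N-cadherin (*Cdh2*) is known from neurons, muscle, mesenchyme and odontoblasts.

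Each library held 26591612 to 34420181 reads in total, of which 82.2% to 85.6% lay on genes of the table. The gene-level value of *Med1* was 7.71 and 9.12 RPKM in Ctrl CLH, 7.10 and 7.03 in cKO CLH, then 4.83 and 8.71 in Ctrl CLT, with 9.15 and 8.96 in cKO CLT. It sums exons inside and outside the deleted part and RNA of cells without Cre, so it does not check the labels. Libraries of the same group lay close together in CLH and in cKO CLT, where the median gene differed by 0.09 to 0.11 between its 2 libraries on the log2(RPKM + 1) scale. In Ctrl CLT that gap was 0.40. Summed markers of suprabasal epidermis were at 322 RPKM in Ctrl CLT 1 but 3.89 in Ctrl CLT 2, and reached 909 and 907 in cKO CLT, and skeletal muscle and melanocyte markers were spread in the same order. Levels of the members in Ctrl CLT are therefore given for each library.

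In the cervical loop head, all 8 members were expressed and no member passed the test. β-catenin was the most abundant of them, E-cadherin the most abundant of the 3 cadherins among them, and *Jup* the least abundant member in all 4 CLH libraries. The order below β-catenin was *Ctnna1*, *Ctnna2*, *Cdh1* and *Ctnnd1* in each of them, while *Cdh3* and *Cdh2* changed places in cKO CLH 1. Under limma on log2(RPKM + 1) with Benjamini-Hochberg adjustment, 0 of 8 members passed an adjusted p of 0.05, against 0 of 14148 genes tested (0%). With voom on the recovered reads the count was also 0 of 8, and its share over all genes in CLH is not given here. At an unadjusted p under 0.05 there was 1 member, *Jup*, beside 7.26% of all genes tested. The 2 cKO CLH libraries did not overlap the 2 Ctrl CLH libraries for 3 of 8 members, beside 38.7% of all genes tested. The median log2 difference of the members was 0.02, beside -0.01 for all genes. In CLT, the contrast that chose the members, cKO lay wholly above Ctrl for 4 of 8 (*Cdh1*, *Ctnnd1*, *Jup* and *Ctnna1*) and wholly below for *Cdh2* and *Ctnna2*, and over all genes tested for 37.2% and 35.1%.

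**Figure D1:**
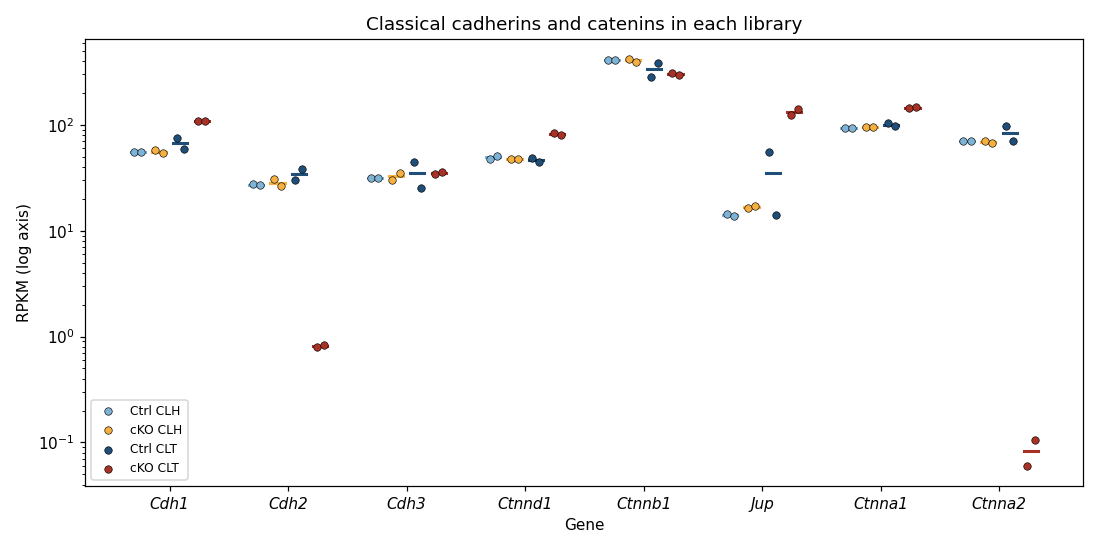
RPKM of the 8 members (y axis, log scale) by gene (x axis), with 1 point per library, a bar at each group's mean and colours for the 4 groups. *Cdh2* and *Ctnna2* stand at 0.80 to 0.84 and 0.06 to 0.11 RPKM in cKO CLT and above 26 RPKM in the other 6 libraries.

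E-cadherin, the cadherin of most epithelia, was at 56.0 and 54.9 RPKM in Ctrl CLH, compared with 57.5 and 54.7 in cKO CLH. These groups overlapped, and the log2 difference was 0.02 (95% interval -0.13 to 0.16, adjusted p = 0.95, limma). In CLT, *Cdh1* was at 75.3 and 59.2 RPKM in Ctrl and at 109.4 and 109.9 in cKO. Both cKO CLT libraries lay above both Ctrl CLT libraries, and the mean was 1.63 times that of Ctrl CLT. Relative to Ctrl CLT 1 alone the log2 difference was 0.54, and relative to Ctrl CLT 2 alone it was 0.88.

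N-cadherin was at 27.5 and 26.8 RPKM in Ctrl CLH, 30.7 and 26.2 in cKO CLH, then 30.3 and 38.5 in Ctrl CLT. In cKO CLT it was at 0.80 and 0.84 RPKM, from 104 reads (95% exact Poisson interval 85.0 to 126) and 106 reads (86.8 to 128), intervals that cover counting error only. The lowest Ctrl CLT library was 36.3 times the highest cKO CLT library, and cKO CLT held 2.38% of the Ctrl CLT mean. In CLH the difference was 0.06 (95% interval -0.18 to 0.30, adjusted p = 0.86, limma), so a deficit in cKO of the size seen in CLT lay far outside the interval. The gene lies on chromosome 18 (mm10, chr18:16588877-16809049, minus strand).

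P-cadherin showed no such separation. *Cdh3* was at 31.6 and 31.8 RPKM in Ctrl CLH, compared with 30.2 and 35.1 in cKO CLH, a log2 difference of 0.04 (95% interval -0.19 to 0.27, adjusted p = 0.92, limma). In CLT it was at 44.6 and 25.2 RPKM in Ctrl and at 34.2 and 36.2 in cKO, between the Ctrl libraries. The sign of its CLT difference turned with the Ctrl library used, from 0.46 against Ctrl CLT 2 to -0.33 against Ctrl CLT 1. *Cdh3* and *Cdh1* are neighbours on the plus strand of chromosome 8 (mm10), 46.5 kilobases apart (chr8:106510891-106556908 and chr8:106603368-106670246).

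RPKM is scaled to gene length, so the 3 cadherins among the members can be set against each other within a library. Their summed level was 113 to 118 RPKM in CLH, 150.3 and 122.9 in Ctrl CLT, compared with 144.4 and 147.0 in cKO CLT. N-cadherin made up 22.6% to 25.9% of this sum in the 4 CLH libraries and 20.2% and 31.3% in Ctrl CLT. In cKO CLT it made up 0.55% and 0.57%. E-cadherin took 47.1% to 50.1% in the other 6 libraries and 75.8% and 74.8% in cKO CLT, while the share of P-cadherin, 23.7% and 24.6% there, lay within the range of Ctrl CLT (29.7% and 20.5%). With *Cdh11* added to the sum, a choice made after its values were seen, the level was 225 to 240 RPKM in CLH, 185.5 and 229.5 in Ctrl CLT, compared with 149.0 and 151.9 in cKO CLT. Of that sum E-cadherin made up 23.7% to 24.4% in CLH, 40.6% and 25.8% in Ctrl CLT, then 73.4% and 72.4% in cKO CLT, and N-cadherin 11.6% to 12.8%, 16.4% and 16.8%, then 0.54% and 0.55%. The sum of the 3 members in cKO CLT lay between the Ctrl CLT libraries, whereas the sum with *Cdh11* lay below both.

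p120-catenin (*Ctnnd1*) was at 47.7 and 51.3 RPKM in Ctrl CLH and at 47.2 in each cKO CLH library. The cKO CLH libraries lay just below Ctrl, with a log2 difference of -0.07 (95% interval -0.23 to 0.09, adjusted p = 0.78, limma). In CLT the order was the opposite, with 48.5 and 44.6 RPKM in Ctrl and 83.6 and 80.1 in cKO, a mean 1.76 times that of Ctrl CLT. The difference between the regions was not tested. A read-through gene model, *Gm28635*, shares 4482 exon bases with *Ctnnd1* on the same strand in the GENCODE annotation and has no row in the table, so how its reads were assigned is not known.

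β-catenin, which besides its place at the junction carries Wnt signals to the nucleus, was at 410.0 and 415.2 RPKM in Ctrl CLH, compared with 418.3 and 396.4 in cKO CLH (log2 difference -0.02, 95% interval -0.22 to 0.19, adjusted p = 0.96, limma). In CLT it was at 283.9 and 386.0 RPKM in Ctrl and at 310.7 and 294.2 in cKO. These values lay between the Ctrl libraries. The CLT difference was -0.35 against Ctrl CLT 2 and 0.09 against Ctrl CLT 1.

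Plakoglobin (*Jup*), the close relative of β-catenin that also sits in desmosomes, was at 14.5 and 13.9 RPKM in Ctrl CLH, compared with 16.5 and 17.1 in cKO CLH. Both cKO CLH libraries were above both Ctrl CLH libraries, by 0.22 on the log2 scale (95% interval 0.05 to 0.40), and the adjusted p was 0.69 (limma). In CLT it was at 56.0 and 14.0 RPKM in Ctrl and at 123.8 and 142.8 in cKO, so that the Ctrl libraries differed 4-fold from each other while cKO lay above both. The log2 difference was 1.23 against Ctrl CLT 1 and 3.16 against Ctrl CLT 2. On the way from Ctrl CLT 2 to the cKO CLT mean, Ctrl CLT 1 stood at 35.2% for *Jup*, 31.9% for *Cdh1*, 21.6% for *Cdh2*, 10.5% for *Ctnnd1* and 9.99% for *Ctnna1*, and outside that range for *Ctnna2*, *Ctnnb1* and *Cdh3*. The summed suprabasal epidermis markers stood at 35.2%, skeletal muscle at 33.1% and melanocyte at 31.2%. Their part in the member values was not tested.

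Of the summed RPKM of *Ctnnb1* and *Jup*, the proteins that can take the same place on the cadherin tail, *Jup* made up 3.25% to 4.12% in CLH, 16.5% and 3.50% in Ctrl CLT, then 28.5% and 32.7% in cKO CLT. The sum itself was 413 to 435 RPKM in CLH, 339.9 and 400.0 in Ctrl CLT, compared with 434.5 and 437.0 in cKO CLT. *Ctnnb1* remained the more abundant of them in all 8 libraries.

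The α-catenins parted in the same libraries as the cadherins. *Ctnna1*, αE-catenin, the widely expressed form, was at 93.3 and 93.6 RPKM in Ctrl CLH, compared with 95.09 and 94.99 in cKO CLH, a log2 difference of 0.02 (95% interval -0.11 to 0.16, adjusted p = 0.91, limma). The cKO CLH libraries lay just above Ctrl. In CLT it was at 103.3 and 98.6 RPKM in Ctrl and at 143.2 and 147.6 in cKO, a mean 1.44 times that of Ctrl CLT. The 2 Ctrl CLT libraries agreed well for this gene.

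*Ctnna2*, αN-catenin, is best known from neurons. It was nevertheless the third most abundant member in all 6 libraries other than cKO CLT, with 69.9 and 70.2 RPKM in Ctrl CLH, 70.6 and 67.0 in cKO CLH, then 96.8 and 70.3 in Ctrl CLT. In CLH the log2 difference was -0.03 (95% interval -0.17 to 0.12, adjusted p = 0.91, limma). In cKO CLT it was at 0.060 and 0.107 RPKM, from 7 reads (95% exact Poisson interval 2.81 to 14.4) and 12 reads (6.20 to 21.0), where the 2 Ctrl CLT libraries had 11697 and 7725. The lowest Ctrl CLT library was 660.3 times the highest cKO CLT library. On the log2(RPKM + 1) scale, which compresses low values, the difference was -6.27, and with a pseudocount of 0.1 it was -8.83.

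The summed level of neuronal markers was 57.5 to 73.0 RPKM in CLH, 35.7 and 30.6 in Ctrl CLT, compared with 25.6 and 26.7 in cKO CLT, nearly all of it *Tubb3*, a tubulin of neurons and some other cells. *Snap25*, *Syt1* and *Elavl4*, which define neurons, were at 0.51 RPKM or less in every library. *Tubb3* was at 31.5 and 26.7 RPKM in Ctrl CLT, compared with 22.7 and 24.3 in cKO CLT, and *Stmn2*, a neuronal regulator of microtubules, at 4.06 and 2.92, compared with 2.34 and 1.87. Of the 5 genes, these 2 lay wholly below Ctrl in cKO CLT, as 35.1% of all genes did, and *Syt1* lay wholly above, at 0.16 and 0.23 RPKM compared with 0.45 and 0.37. Their part in the *Ctnna2* values was not tested. *Ctnna2* covers a long stretch of chromosome 6 (mm10, chr6:76881637-77979667, minus strand). Inside its span lie *6330415B21Rik*, whose values are not given here, and *Lrrtm1*, a gene for a synaptic adhesion protein. *Lrrtm1* was at 2.98 and 1.77 RPKM in Ctrl CLH, 2.79 and 2.87 in cKO CLH, then 0.83 and 1.92 in Ctrl CLT and only 0.10 and 0.12 in cKO CLT, from 7 and 8 reads. *Lrrtm2*, which lies inside *Ctnna1*, was also lower in cKO CLT, with 2 and 0 reads, compared with 5 and 24 in Ctrl CLT. Its host *Ctnna1* was higher there. No exon of another gene model overlaps an exon of *Ctnna2* in the GENCODE annotation.

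*Ctnna2* made up 41.4% to 42.9% of the summed α-catenin RPKM in CLH, 48.4% and 41.6% in Ctrl CLT, then 0.04% and 0.07% in cKO CLT. The summed α-catenin level was 162 to 166 RPKM in CLH, 200.1 and 168.9 in Ctrl CLT, compared with 143.2 and 147.7 in cKO CLT. The summed α-catenin level of cKO CLT thus lay below both Ctrl CLT libraries although *Ctnna1* was higher.

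**Figure D2:**
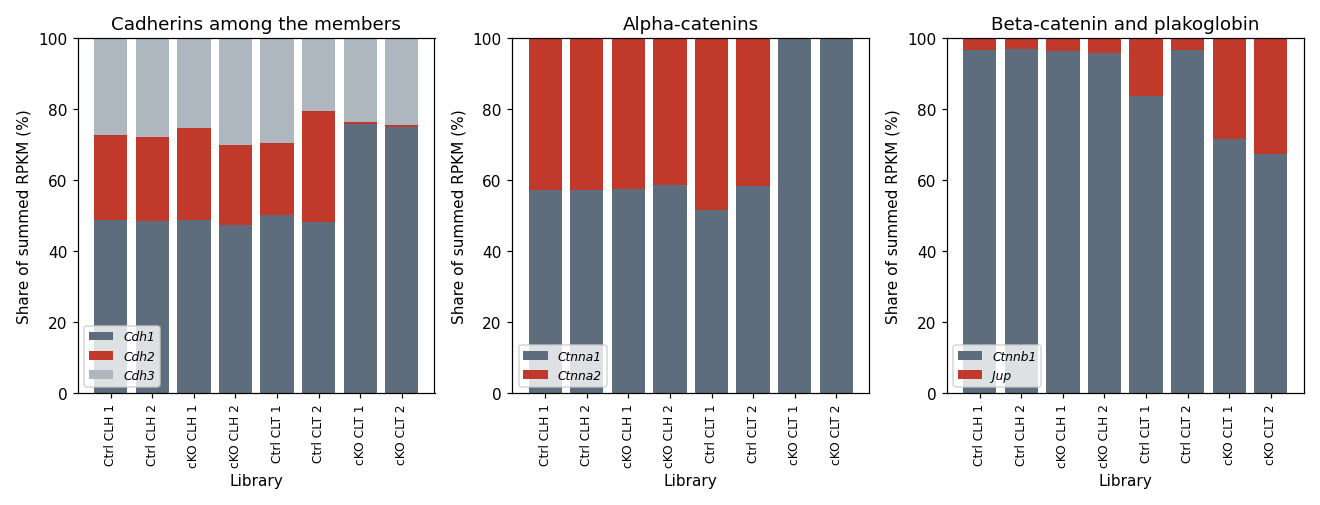
Stacked bars of the share of summed RPKM (y axis, %) in each of the 8 libraries (x axis), for the 3 cadherins among the members, the 2 α-catenins among them, and β-catenin with plakoglobin. *Cdh2* and *Ctnna2* nearly vanish from cKO CLT, and *Jup* reaches 28.5% and 32.7% there.

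In bulk tissue, fewer cells of a type and less RNA per cell cannot be told apart, and the cell types in CLT moved with these members. A gene counts below as higher or lower where both cKO CLT libraries lay on the same side of both Ctrl CLT libraries. Over all genes tested, 37.2% were higher and 35.1% lower by this rule. Summed ameloblast markers, led by the enamel matrix genes *Amelx* and *Ambn*, were at 84580 and 37390 RPKM in Ctrl CLT, compared with 19.7 and 15.8 in cKO CLT, with 7 of 7 genes lower. Odontoblast and bone markers, led by *Col1a1* and *Dspp*, summed to 2153 and 2498 RPKM in Ctrl CLT, compared with 378 and 472 in cKO CLT. All 6 were lower, *Ibsp* was at 0 in both cKO CLT libraries, and *Dspp* was at 0.14 and 0.17. Skeletal muscle markers (*Acta1*, *Mylpf*) summed to 638 and 48.0 RPKM in Ctrl CLT, compared with 1745 and 1921 in cKO CLT. Melanocyte markers (*Dct*, *Mlana*) summed to 124.5 and 8.16 RPKM in Ctrl CLT, compared with 380 and 383 in cKO CLT, and in both lists every gene was higher. Basal epithelium (*Krt5*, *Krt14*) stood at 1280 and 810 RPKM in Ctrl CLT, compared with 1575 and 1808 in cKO CLT, with 3 of 5 genes higher and 2 lower. Mesenchyme (*Col3a1*, *Vim*) stood at 1127 and 1915 RPKM in Ctrl CLT, compared with 1247 and 1343 in cKO CLT, with 3 of 5 genes lower and 1 higher. The higher one was *Col3a1*, and among the lower ones *Vim* was at 266 and 508 RPKM in Ctrl CLT, compared with 128 and 132 in cKO CLT, and *Lum*, picked after its values were seen, at 191 and 673, compared with 41.4 and 38.0. Endothelium (*Emcn*, *Pecam1*) and leukocyte markers (*Csf1r*, *Cd68*) summed to 39.3 to 41.6 and 23.8 to 27.7 RPKM in cKO CLT, below the sums in Ctrl CLT. Of 4 endothelium genes, 2 were lower and 1, *Pecam1*, was higher, and of 4 leukocyte genes 3 were lower and 1 higher. The part of these tissues in the member values was not tested.

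**Figure D3:**
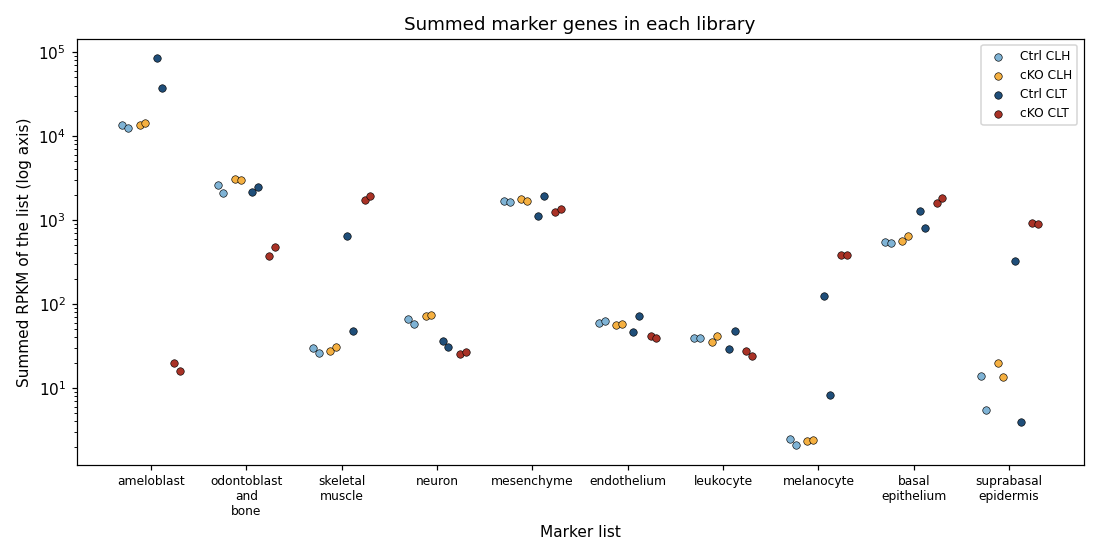
Summed RPKM of 10 marker lists (y axis, log scale) in each library, with 1 point per library and colours for the 4 groups. Ameloblast markers are at 15.8 and 19.7 RPKM in cKO CLT and 12500 or above elsewhere, while the epidermal, muscle and melanocyte lists are highest in cKO CLT and next highest in Ctrl CLT 1.

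The tissue difference of CLT was not seen at that size in CLH. There the ameloblast markers summed to 12500 to 14320 RPKM over both genotypes, and odontoblast and bone markers to 2091 to 3062. Suprabasal epidermis summed to 13.7 and 5.45 in Ctrl CLH, compared with 19.9 and 13.6 in cKO CLH. Of its 4 genes, 2 lay wholly above Ctrl in cKO CLH and 0 wholly below, beside 38.7% of all genes in either direction. From CLH to CLT in Ctrl, *Cdh2* differed by 0.32 and *Ctnna2* by 0.23 on the log2 scale, values no wider than the gap between the 2 Ctrl CLT libraries (-0.33 and 0.46). In cKO the same step was -4.02 and -6.01.

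The genes most like *Cdh2* and *Ctnna2* across the 8 libraries were all lower in cKO CLT than in each of the other 6 libraries. For *Cdh2* they were *Wisp1*, *Alpl*, *2010002N04Rik*, *Vldlr* and *Dspp*, with Pearson r of log2(RPKM + 1) between 0.998 and 0.999. *Alpl*, the alkaline phosphatase of mineralizing tissue, was at 232 to 369 RPKM in the other 6 libraries and at 1.94 and 1.97 in cKO CLT. For *Ctnna2* they were *F2r*, *0610007N19Rik*, *Bglap*, *Nmnat2* and *Mpzl1*, with r between 0.998 and 0.999. *Bglap*, the bone matrix protein osteocalcin, was at 348 to 490 RPKM in the other 6 libraries and at 0.69 and 0.41 in cKO CLT. Between *Cdh2* and *Ctnna2* r was 0.995, and 53 genes outside the members reached 0.99 with *Cdh2* and 55 with *Ctnna2*. Such values describe 8 points of which the cKO CLT pair sets the range.

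Upstream sequence came from a promoter table made from RefSeq (GRCm38.p6), in which 4 of 8 members were matched (*Ctnna2*, *Ctnnb1*, *Ctnnd1* and *Jup*). That of *Cdh1*, *Cdh3*, *Cdh2* and *Ctnna1* was not used here. The stretches from 250 to 51 bases before the start are shown for *Ctnna2* and *Jup*, the catenins with the widest differences in opposite directions in CLT. They lie at chr6:77979718-77979917 and chr11:100397841-100398040, both on the minus strand, and are written 5′ to 3′ in the direction of transcription, with matches to the motifs below in capitals.
*Ctnna2*: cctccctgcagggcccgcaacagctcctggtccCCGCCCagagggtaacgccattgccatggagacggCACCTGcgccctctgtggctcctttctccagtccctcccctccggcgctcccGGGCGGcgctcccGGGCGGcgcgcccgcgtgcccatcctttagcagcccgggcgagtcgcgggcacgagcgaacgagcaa
*Jup*: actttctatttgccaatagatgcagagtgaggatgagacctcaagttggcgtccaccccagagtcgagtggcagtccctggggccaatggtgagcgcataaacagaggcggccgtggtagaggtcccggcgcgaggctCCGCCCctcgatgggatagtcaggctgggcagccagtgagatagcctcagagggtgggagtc

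The motifs searched on both strands were CACCTG, the E2-box read by Snail and Zeb repressors, TGANTCA (AP-1), TGTGGT (Runx), CTTTGA (TCF/LEF) and CCGCCC (GC box), with overlapping matches counted. *Ctnna2* held 1 CACCTG, at position -182, and 3 GC boxes, at -217, -130 and -117. *Jup* held 1 GC box, at -112, and none of the others. Of the same window in 32851 promoters, 14.4% held CACCTG, 5.6% TGANTCA, 11.6% TGTGGT, 11.8% CTTTGA and 24.6% CCGCCC. The *Ctnna2* window was 73.0% G and C and that of *Jup* 60.5%. A match describes these letters only.

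Other genes of the adherens junction were taken from 6 lists of 66 genes in all, of which 65 were in the table and 55 passed the filter on low values. In CLH, 0 of 55 passed the test (limma, adjusted p) in either direction, beside 0 of 14148 genes tested. Unadjusted p-values under 0.05 were found for 6 of 55, all of them higher, beside 7.26% of all genes in either direction. The share of all genes for each direction is not given here. Voom on the recovered reads also called 0 of 55, and its share over all genes in CLH is not given here. The median log2 difference of the 55 was 0.03, and the smallest adjusted p was 0.69 (limma). In the order of the lists, the 2 genes with the smallest p were *Cdh4* and *Cdh5*, *Vcl* and *Arvcf*, *Nectin1* and *Pvr*, *Actn4* and *Enah*, *Furin* and *Ptprf*, and *Tcf3* and *Snai1*. The widest of these differences was 0.33, for the E-protein gene *Tcf3*.

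In CLT, 0 of 55 passed the limma test in either direction, beside 0.0777% of all genes tested higher in cKO and 1.68% lower. Voom also called 0 of 55, beside 0 of all genes higher and 0.127% lower. Unadjusted p-values under 0.05 were found for 18 of 55 higher and 8 of 55 lower, beside 19.8% and 16.4% of all genes. The cKO CLT libraries lay wholly above Ctrl CLT for 22 of 55 (40.0%) and wholly below for 18 of 55 (32.7%), beside the 37.2% and 35.1% of all genes. When the spread was estimated over all 8 libraries in 1 fit, 20 of 55 (36.4%) were higher and 10 of 55 (18.2%) lower at an adjusted p under 0.05, beside 23.7% and 20.0% of all genes. Fits without 1 Ctrl CLT library took their spread from the cKO CLT pair alone, so their calls are not counted here. For the median gene that pair differed by 0.105, and the Ctrl CLT pair by 0.404. With the replicate number as a block, 7 were higher and 4 lower at an adjusted p under 0.05 (limma), beside 6.28% and 6.05% of all genes. Among them were *Cdh11*, *Ctnnd2*, *Nectin3*, *Plekha7*, *Snai1*, *Esrp1*, *Ovol1*, *Grhl3* and *Esrp2*, whose main-fit values follow. Whether these numbers mark litters is not given in the sources used here. The median log2 difference of the 55 was 0.01, beside -0.01 for all genes.

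Among the other classical cadherins, 6 of 15 could be tested, and the rest were at 1.01 RPKM or less in every library. *Cdh11*, OB-cadherin, a type II cadherin of mesenchyme and bone, was the most abundant of them, at 113.9 and 118.4 RPKM in Ctrl CLH, compared with 122.0 and 108.8 in cKO CLH. In CLT it was at 35.3 and 106.6 RPKM in Ctrl and at 4.64 and 4.91 in cKO (log2 difference -3.43 ± 0.57 SE, adjusted p = 0.064, limma). Both cKO libraries were below both Ctrl libraries, and its direction in CLT was that of *Cdh2*. *Cdh4*, R-cadherin, was at 0.41 and 0.23 RPKM in Ctrl CLT, compared with 1.38 and 1.39 in cKO CLT (adjusted p = 0.079, limma).

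Of the other catenin relatives, *Ctnnd2*, δ-catenin, a p120 relative best known from neurons, was at 3.46 and 6.00 RPKM in Ctrl CLT and at 0.46 in each cKO CLT library (log2 difference -1.93 ± 0.28 SE, adjusted p = 0.062, limma). *Pkp4*, a further p120 relative, was at 26.8 and 48.8 RPKM in Ctrl CLT, compared with 16.3 and 15.6 in cKO CLT (adjusted p = 0.10, limma). *Ctnna3*, αT-catenin, did not exceed 0.155 RPKM in any library. In cKO CLT it had 17 and 7 reads, where *Ctnna2* had 7 and 12. *Arvcf*, also a p120 relative, was at 7.25 and 8.67 RPKM in Ctrl CLT, compared with 5.25 and 6.09 in cKO CLT (adjusted p = 0.18, limma). Of the 5 genes tested in this list, these 3 lay wholly below Ctrl in cKO CLT, beside 35.1% of all genes, and the other two overlapped.

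Nectins are immunoglobulin-like adhesion proteins that reach actin through afadin. *Afdn*, which encodes afadin, was at 28.5 and 22.8 RPKM in Ctrl CLT, compared with 56.7 and 54.7 in cKO CLT (log2 difference 1.10 ± 0.17 SE, adjusted p = 0.062, limma). *Nectin3* had the opposite order, with 26.4 and 43.9 RPKM in Ctrl CLT, compared with 11.6 and 10.6 in cKO CLT (adjusted p = 0.069, limma). Of the 6 genes tested in this list, 4 lay wholly above Ctrl in cKO CLT and 1, *Nectin3*, wholly below. Over all genes the shares were 37.2% and 35.1%. *Nectin1* in CLH was at 13.5 and 12.8 RPKM in Ctrl and 15.3 and 16.0 in cKO (adjusted p = 0.69, limma).

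Of the actin linkers and scaffolds, 7 of 10 tested lay wholly above Ctrl in cKO CLT and 2 wholly below, beside 37.2% and 35.1% of all genes. *Actn1*, an actin-crosslinking α-actinin, was at 30.9 and 30.3 RPKM in Ctrl CLT, compared with 62.8 and 66.2 in cKO CLT (log2 difference 1.05 ± 0.13 SE), and its adjusted p of 0.056 (limma) was the smallest of all 55 genes. *Plekha7*, which ties p120 at the junction to microtubules, was at 3.23 and 1.56 RPKM in Ctrl CLT, compared with 8.82 and 10.4 in cKO CLT (adjusted p = 0.069, limma). The 2 cKO CLT libraries lay close together for *Actn1*.

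Among the genes of cadherin processing and turnover, the receptor phosphatase gene *Ptprm*, whose product binds cadherin complexes, was at 4.17 and 7.37 RPKM in Ctrl CLT, compared with 2.22 and 2.06 in cKO CLT (adjusted p = 0.098, limma). The phosphatase gene *Ptpn1* was at 17.0 and 9.68 RPKM in Ctrl CLT, compared with 27.3 and 29.2 in cKO CLT (adjusted p = 0.099, limma).

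The cadherin-switch regulators are transcription and splicing factors known for opposite effects on *Cdh1* and mesenchymal genes. *Snai1*, a repressor of *Cdh1* that binds E-boxes, was at 26.1 and 25.3 RPKM in Ctrl CLH, compared with 29.3 and 34.3 in cKO CLH, and at 6.01 and 18.7 in Ctrl CLT, compared with 1.33 and 1.66 in cKO CLT (CLT log2 difference -2.24 ± 0.55 SE, adjusted p = 0.088, limma). *Esrp1*, a splicing factor of epithelia, was at 42.1 and 18.02 RPKM in Ctrl CLT, compared with 91.7 and 89.3 in cKO CLT (adjusted p = 0.092, limma). Over the list, 6 of 17 lay wholly above Ctrl in cKO CLT and 7 wholly below, close to the shares of all genes (37.2% and 35.1%). Among the differences picked after they were seen were *Ovol1*, *Grhl3* and *Esrp2*, all factors of epidermal or other epithelia. They had 1.77, 1.54 and 1.59 against Ctrl CLT 1 alone and 4.91, 3.80 and 4.17 against Ctrl CLT 2 alone. None of them passed in the main fit (adjusted p = 0.12, 0.11 and 0.12, limma). *Ovol2* of the same list went the other way, at 5.11 and 1.72 RPKM in Ctrl CLT, compared with 1.42 and 1.22 in cKO CLT. The E-protein gene *Tcf3* lay wholly above Ctrl, unlike *Snai1*. It was at 14.0 and 14.9 RPKM in Ctrl CLT, compared with 20.4 and 23.1 in cKO CLT (adjusted p = 0.096, limma). For *Snai2* and *Zeb1* the CLT groups overlapped.

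**Figure D4:**
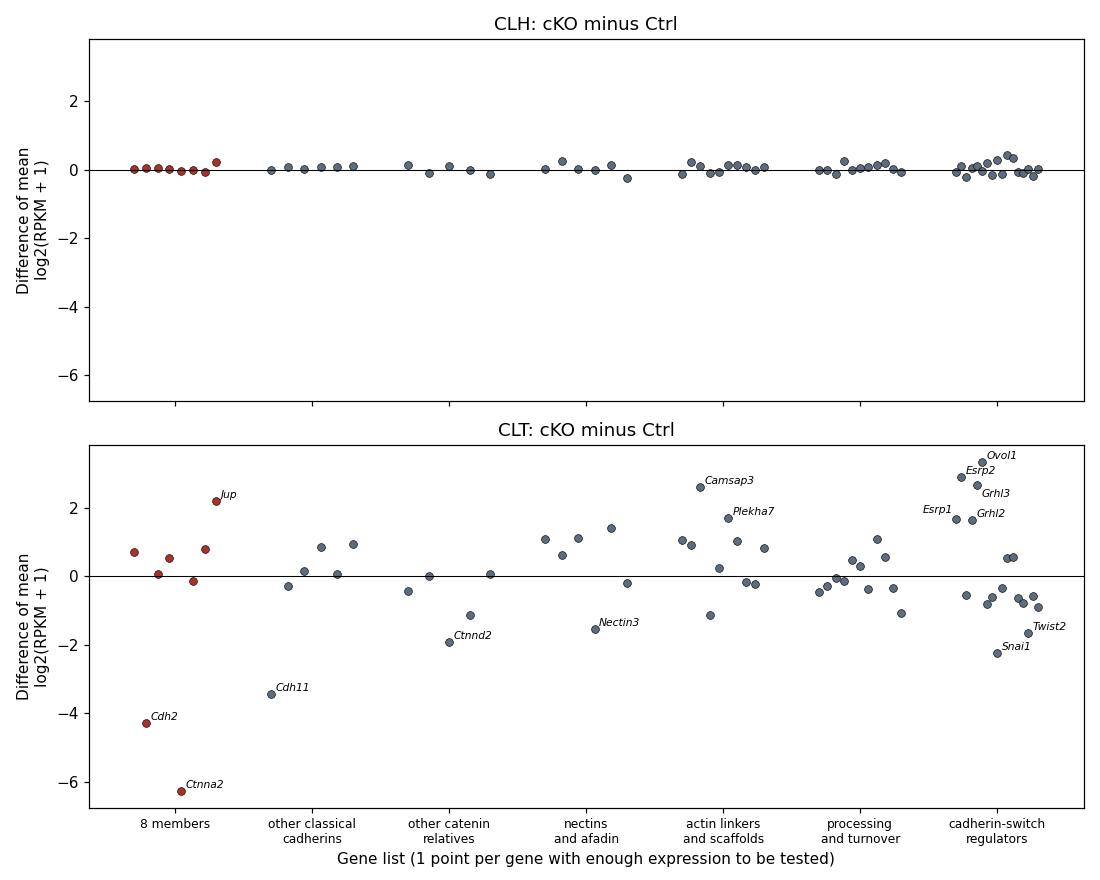
Difference of mean log2(RPKM + 1), cKO minus Ctrl (y axis), for the 8 members and the 55 other junction genes tested, grouped by list (x axis), in CLH (top) and CLT (bottom), with 1 point per gene and the widest differences named. CLH differences lie between -0.23 and 0.42, and CLT differences between -6.27 and 3.34.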

How the data were processed

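RNA-seq of CLH and CLT tissues of Ctrl and *Med1* cKO mice was analysed, with 2 libraries in each of 4 groups taken from the sample labels. Per the labels, the authors used FastQC 0.72, Trim Galore 0.4.3.1, STAR 2.6.0b-1, featureCounts 1.6.3 and DESeq2 2.11.40.2 on mm10. The annotation, the strand setting and the total behind the RPKM are not given in the sources used here, so values of overlapping and antisense genes are uncertain. The authors deposited RPKM for 23358 genes in 8 columns. The product of RPKM and gene length was a whole multiple of 1 read in 100.0% of values (those under 1000 reads, tolerance 0.02), which gave each library's total reads.

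The 14148 genes that reached an RPKM of 1 in 2 or more libraries were tested in each region's 4 libraries with limma 3.58.1 in R 4.3.3 (lmFit, eBayes with trend) on log2(RPKM + 1), adjusted by Benjamini-Hochberg, threshold 0.05. With 2 libraries a group, the smallest exact permutation p is 0.333, so none was run. The script was tested on simulated data. The members and lists were chosen with earlier results of these data known. Named were all members, *Med1*, in each list and region the genes past the threshold (up to 6) or, with none, the 2 with the smallest p, the 2 most abundant genes of marker lists, and the 5 genes most like *Cdh2* and *Ctnna2*. *Ajuba* and *Flg* were not matched, and some items are not reported here. Alternatives were pseudocounts of 0.1 and 0.5, no filter, median-of-ratios scaling, all 8 libraries in 1 fit, a replicate block, voom on recovered reads, and each library left out in turn, where a lone library was assumed to vary like the other group. Intervals of reads are 95% exact Poisson intervals. Promoters came from RefSeq (GRCm38.p6) and gene models from GENCODE M21.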

Additional observations from a re-analysis of the deposited data

Results flagged for a closer look

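The 8 members, the 55 other junction genes tested and *Med1* were searched. For 7 of these genes the cKO libraries lay wholly on opposite sides of Ctrl in CLH and in CLT. The difference between the regions was not tested in any of them. On the log2(RPKM + 1) scale, cKO minus Ctrl, p120-catenin (*Ctnnd1*) was at -0.07 in CLH and 0.80 in CLT, and its relative *Arvcf* at 0.13 and -0.42. The actin linker gene *Lima1* was at -0.07 and 0.24. Of the cadherin-switch regulators, *Snai1* was at 0.29 and -2.24, *Ovol2* at 0.19 and -0.81, and *Esrp1* at -0.05 and 1.68. *Med1* itself was at -0.22 and 0.42. With 2 libraries in a group, non-overlapping groups were common over all genes tested. In CLH they made up 38.7% in either direction, and in CLT 37.2% higher and 35.1% lower in cKO. These are shares of each region alone. The share of all genes that lay on opposite sides in CLH and CLT is not given here, so these 7 genes are a description only.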

How the results depend on the processing

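In CLH, 0 members and 0 other junction genes passed the threshold in every setting run. Of 88 recomputed CLH differences of the members, 83 kept their direction and their side of the threshold. The other 5 changed sign when 1 library was left out: *Cdh1* ranged from -0.018 to 0.051, *Cdh2* from -0.048 to 0.171, *Cdh3* from -0.068 to 0.145, *Ctnna2* from -0.064 to 0.010 and *Ctnnb1* from -0.058 to 0.020. In CLT, leaving out 1 library turned *Cdh3* (-0.33 to 0.46) and *Ctnnb1* (-0.35 to 0.09), while *Cdh1*, *Ctnna1*, *Ctnnd1* and *Jup* stayed higher and *Cdh2* and *Ctnna2* lower in all settings.

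The number of other junction genes past the threshold in CLT, 0 in either direction in the main fit, came to 20 higher and 10 lower with all 8 libraries in 1 fit. With a replicate block it was 7 higher and 4 lower, beside 6.28% and 6.05% of all genes. The 4 lower genes under this block were *Cdh11* (adjusted p = 0.011, limma), *Ctnnd2* (0.035), *Nectin3* (0.039) and *Snai1* (0.035). The 7 higher ones were *Plekha7* (0.040), *Camsap3* (0.040), *Esrp1* (0.039), *Esrp2* (0.039), *Grhl2* (0.043), *Grhl3* (0.039) and *Ovol1* (0.039). The sources used here do not tie the numbers to litters, and 2 pairs cannot show whether they pair the samples. With each library left out it ranged from 0 to 24 higher and from 0 to 22 lower, with calls only where a Ctrl CLT library was left out. The cause was not tested. Pseudocount, filter, scaling and voom left it at 0. Voom gave -5.38 for *Cdh2* and -9.93 for *Ctnna2* in CLT. The 7 and 12 reads of *Ctnna2* in cKO CLT limit how precisely its fold is known. Shares within a library do not change with scaling, but adding *Cdh11* to the cadherins, chosen after seeing the data, lowered the mean share of *Cdh1* in Ctrl CLH from 48.5% to 24.1%.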
